A study of Mus musculus with 2 samples.

Results

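The 37 genes of the mouse mitochondrial genome were taken from tables of total RNA sequencing of gastrocnemius, the large calf muscle, as every gene whose symbol starts with mt-. They were 37 of 55536 annotated genes, and comprised 13 mRNA genes, 2 rRNA genes and 22 tRNA genes. The study holds 1 group of 2 libraries from male B6CASTF1/J mice aged 2 months, prepared from 300 ng of RNA each and carrying ERCC spike-ins, and it has no treated or mutant group. B6CASTF1/J mice are first-generation hybrids of a B6 parent and a CAST parent, and mitochondrial DNA passes through the mother. The labels number the libraries as biological replicates 1 and 2, but give both tissue samples the same donor entry, so any spread between them may be partly technical. Each library has expected counts and TPM from alignments to the transcriptome (called the first tables) and estimated counts and TPM of a second kind (called the second tables). TPM is a level corrected for transcript length and library size. The reference was the mm10 assembly, which is of the B6 strain, with the GENCODE M21 annotation.

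The mitochondrial genome is a small circle, copied in many molecules per cell, that encodes core subunits of respiratory complexes I, III and IV and of ATP synthase, together with the rRNAs and tRNAs needed to translate them. Each strand is transcribed as a long precursor, and tRNAs lying between the other genes are cut out by RNase P and RNase Z, which frees the mRNAs and rRNAs. All but mt-Nd6 of the mRNAs are read from the heavy-strand promoter region, and the other subunits of the complexes come from nuclear genes and are imported. Oxidative muscle fibres are rich in mitochondria, and fast glycolytic fibres have fewer.

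The genes lie end to end. Of 36 neighbouring pairs on the map, 9 overlapped and 12 abutted, and the largest gap was 32 nt, between mt-Tn and mt-Tc. Of the 14 neighbouring pairs of mRNA or rRNA genes, 4 had no tRNA between them. Those 4 were mt-Atp8 with mt-Atp6, mt-Atp6 with mt-Co3, mt-Nd4l with mt-Nd4, and mt-Nd5 with mt-Nd6. The ends of mt-Atp8 and mt-Nd4l are shown, with the stretch shared with the next gene in capitals, because reads from these bases belong to a pair of genes at once. All sequences are from the GENCODE M21 transcripts, 5′ to 3′.
mt-Atp8, chrM:7910-7969, plus strand: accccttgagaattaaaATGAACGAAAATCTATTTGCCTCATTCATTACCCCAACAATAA
mt-Nd4l, chrM:10144-10173, plus strand: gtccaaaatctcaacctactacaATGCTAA
The overlap of mt-Atp8 with mt-Atp6 spans 43 nt, and that of mt-Nd4l with mt-Nd4 spans 7 nt.

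Of the 13 mRNA genes, 10 end in a full stop codon in the annotation. The other 3, mt-Co3, mt-Nd4 and mt-Cytb, end in a T after the last whole codon, which is shown in capitals. In such mRNAs the stop codon is completed by polyadenylation.
mt-Co3, chrM:9366-9390, plus strand: gtctccatttattgatgaggatctT
mt-Nd4, chrM:11520-11544, plus strand: aaactaattacaggcctgacaataT
mt-Cytb, chrM:15264-15288, plus strand: gacaaaatactaaaattatatccaT
Of the 13, 9 start with ATG and 4 with another codon. mt-Nd6, on the opposite strand, differs in base composition from the 12 heavy-strand mRNAs. Its RNA is 28.1% G and 5.97% C, against a median of 11.02% G (5.88% to 16.1%) and 26.0% C among the 12.

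The tRNA genes could not be measured. All 22 are 59 to 75 nt long, and all were listed at 0 reads in both libraries and both kinds of table. In the first tables effective length, the number of positions at which a read can start, was 99 nt below transcript length. All 2398 annotated genes under 100 nt therefore had an effective length of 0 there. In the second tables the tRNA genes had effective lengths from 21.5 nt (mt-Ts2, replicate 2) to 25.8 nt (mt-Tl1, replicate 1), and the cause of their zeros was not tested. Together the 2398 genes held 0 reads in the first tables and 0 in the second. The zeros thus hold for every annotated gene of this size and give no level for the tRNAs. The longest and shortest of them and the first gene of the map are shown, with the anticodon in capitals, as the kind of sequence that is out of reach here.
mt-Tl1, 75 nt, tRNA for leucine, chrM:2676-2750, plus strand: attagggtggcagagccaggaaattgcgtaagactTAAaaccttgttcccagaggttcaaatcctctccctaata
mt-Ts2, 59 nt, tRNA for serine, chrM:11613-11671, plus strand: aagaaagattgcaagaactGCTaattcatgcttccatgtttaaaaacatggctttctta
mt-Tf, 68 nt, tRNA for phenylalanine, chrM:1-68, plus strand: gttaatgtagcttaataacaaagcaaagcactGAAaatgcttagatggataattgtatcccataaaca
The remaining 15 genes, 204 to 1824 nt long, had reads in both libraries of the first tables, and the values that follow are of these.

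Several mRNAs share nearly all of their sequence with nuclear genes, and reads from those stretches cannot be assigned by sequence alone. Segments of mitochondrial DNA that were copied into nuclear chromosomes are known as nuclear mitochondrial segments. By alignment over at least 100 nt at 90% identity or more, 17 annotated nuclear genes matched 11 of the 37 genes. Of these, 7 formed a block of 4663 nt on chromosome 1, at chr1:24611535-24616197 (mm10) on the minus strand, in the order of the mitochondrial map from the end of mt-Co1 to the first part of mt-Nd4. All 7 are annotated as unprocessed pseudogenes. The copies of mt-Co2, mt-Atp6, mt-Co3 and mt-Nd4l were 100% identical to the gene over 681, 678, 783 and 294 nt and differed from it in lacking its last bases. The ends of these pairs are shown, with the bases that only the mitochondrial gene has in capitals.
mt-Co2, chrM:7673-7696, plus strand: aactgatctgcttcaataattTAA
Gm28661, chr1:24614885-24614905, minus strand: aactgatctgcttcaataatt
mt-Atp6, chrM:8584-8607, plus strand: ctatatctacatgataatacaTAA
Gm10925, chr1:24613974-24613994, minus strand: ctatatctacatgataataca
mt-Co3, chrM:9367-9390, plus strand: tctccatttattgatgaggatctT
Gm28437, chr1:24613189-24613211, minus strand: tctccatttattgatgaggatct
mt-Nd4l, chrM:10150-10173, plus strand: aatctcaacctactacaatgcTAA
Gm10222, chr1:24612407-24612427, minus strand: aatctcaacctactacaatgc
Of the stretches of 100 nt that can be cut from the gene, only 3 of 585 in mt-Co2, 3 of 582 in mt-Atp6, 1 of 685 in mt-Co3 and 3 of 198 in mt-Nd4l were absent from the copy. A read of that size from elsewhere in these genes matches gene and copy equally. The copies of mt-Nd3 (Gm28438, 345 nt) and mt-Co1 (Gm29216, the last 483 nt of the gene) each carried 1 mismatch, T3C and A1066T, with the mitochondrial base first and positions counted from the first base of the gene. The copy of mt-Nd4 (Gm28439) was identical over its first 876 nt. mt-Atp8 lies between mt-Co2 and mt-Atp6, and no annotated gene matched it at this limit.

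Reads were divided very unevenly between these identical pairs. In the first tables mt-Co2 held 1954 reads in replicate 1 and 3892 in replicate 2, and Gm28661 held 297630 and 351988. The mitochondrial gene thus had 0.652% and 1.09% of the reads of its pair. mt-Co3 had 13.9% and 20.5% of the reads of its pair, and mt-Atp6 21.4% and 26.9%. By contrast mt-Nd4l, whose copy is also identical over its whole length, had 99.5% and 99.99% of its pair, and mt-Nd3 and mt-Nd4 had all of theirs. mt-Co1 had 87.0% and 87.8%, with 102351 and 123802 reads on Gm29216. The block as a whole held 2.25% and 2.56% of all gene reads.

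The second tables divided the same pairs differently. There mt-Atp6 had 98.2% and 99.9% of the reads of its pair, mt-Co1 97.5% in both libraries, mt-Co3 22.0% and 22.99%, and mt-Co2 5.23% and 5.63%. Gm28439, at 0 reads in the first tables, had 228 and 5163 reads in the second, and mt-Nd4 then had 99.9% and 97.9% of that pair. The block held 1.07% and 1.27% of reads. The division of reads between an identical pair thus changed with the kind of table, most for mt-Atp6. Outside the block the 10 other copies held 252 and 291 reads together in the first tables, and 8 of them had 10 or fewer in each library. Gm13341, a copy of mt-Co2 on chromosome 2, was the only 1 of the 10 at 1% or more of the reads of its gene, at 120 and 136 reads against the low count of mt-Co2.

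**Figure D1:**
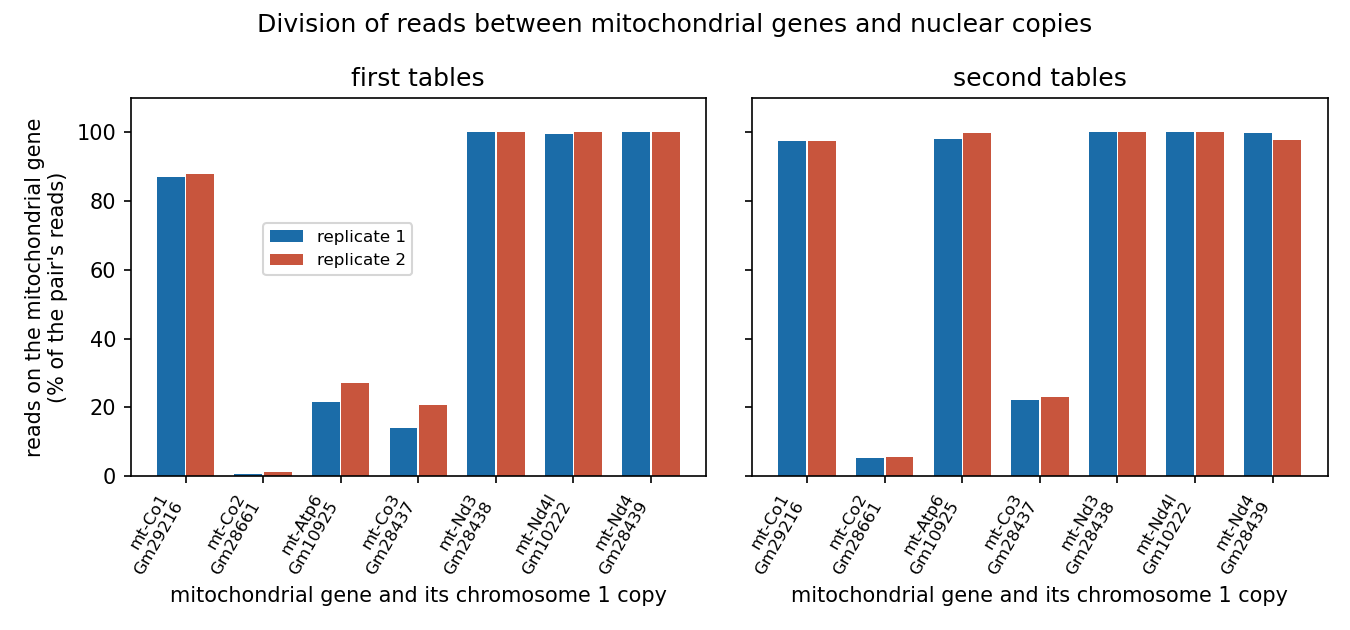
Percentage of the reads of each pair (mitochondrial gene plus its chromosome 1 copy) that were on the mitochondrial gene, by library, in the first tables (left) and second tables (right). mt-Co2 is near 0 in the first tables, at 0.652% and 1.09%, and mt-Atp6 moves from 21.4% and 26.9% to 98.2% and 99.9%.

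The uncertainty deposited with the first tables was large for the same genes. The posterior standard deviation of the count was 174% (replicate 1) and 102% (replicate 2) of the count for mt-Co2, 21.4% and 10.4% for mt-Co3, and 6.94% and 5.33% for mt-Atp6. It was 2.79% and 2.11% for mt-Nd4l and at most 0.155% for mt-Co1, mt-Nd3 and mt-Nd4. It was 0 for both rRNAs, mt-Nd1, mt-Atp8, mt-Nd6 and mt-Cytb. The posterior mean TPM of mt-Co2 was 709 in replicate 1 and 856 in replicate 2, where the deposited TPM was 97.2 and 194. For mt-Co3 it was 5225 and 6868, against 1953 and 3371. For mt-Rnr1, which shares no such reads, it was 39897 against 40675 in replicate 1. Because of this, levels are given both as deposited and with the reads of all 17 copies added to their gene, at the gene's effective length. The sum cannot tell RNA of the nuclear copies from mitochondrial RNA, and takes all of it as mitochondrial.

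The 37 genes held 14.9% of the 42724520 reads on genes in replicate 1 and 19.6% of the 42280091 in replicate 2, a mean of 17.3% ± 3.35 (SD, n = 2). Most of these reads were rRNA. The 2 rRNA genes held 10.2% and 13.9% of all gene reads, which is 68.5% and 70.7% of the reads of the 37 genes. The 13 mRNAs held 4.70% and 5.75%, and with copies 6.95% and 8.31%. Reads are not independent molecules, and the exact binomial (Clopper-Pearson) 95% interval, 14.91% to 14.93% for the 37 genes in replicate 1, covers counting error only. Whether rRNA was depleted from these libraries is not given beyond a spike-in label that names ribo-reduced libraries, so the rRNA share is that of the libraries and not of the tissue.

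Among the rRNAs, mt-Rnr2 (the rRNA of the large mitoribosomal subunit, chrM:1094-2675) had a level of 62243 TPM in replicate 1 and of 84020 in replicate 2. mt-Rnr1 (the rRNA of the small subunit, chrM:70-1024) was at 40675 and 54079 TPM. The ratio of mt-Rnr2 to mt-Rnr1 was 1.53 and 1.55, so it was nearly the same in both libraries although the levels of both genes were higher in replicate 2. Summed rRNA over summed mRNA, in TPM, was 1.64 and 1.83 (1.74 ± 0.136, n = 2) as deposited, and 0.974 and 1.12 (1.05 ± 0.102) with copies added.

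In the first tables the 13 mRNAs spanned a range of levels that depended mostly on the copies. As deposited, the highest mean TPM was 109 times the lowest, with mt-Co1 at the top and mt-Co2 at the bottom. With copies added it was 21.7 times the lowest, with mt-Atp6 at the top and mt-Nd6 at the bottom. In the second tables with copies added the same 4 mRNAs led in another order, mt-Co2 at a mean of 26213 TPM, mt-Co1 at 26011, mt-Atp6 at 23014 and mt-Co3 at 21991. There the lowest were mt-Atp8, listed at 0, and mt-Nd4l at 56.9 TPM, and mt-Nd6 came next at 1481. The highest mRNA was 577 (replicate 1) and 402 (replicate 2) times the lowest above 0, and 535 and 392 times without the copies. Mean TPM as listed was higher in the second tables for all measured genes but mt-Atp8, mt-Nd3 and mt-Nd4l. For mt-Rnr2 it was 112467 against 73132, and for mt-Co1 25346 against 15858. Effective length, on which TPM depends, was shorter in the second tables, at 612 against 856 nt for mt-Rnr1 in replicate 1. The reads of mt-Rnr1 were fewer there although its TPM was higher, at 990928 against 1195959 in replicate 1. The libraries differed in direction for mt-Nd3, at 1725 against 3833 TPM in replicate 1 and 4226 against 3924 in replicate 2.

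The 3 core catalytic subunits of cytochrome c oxidase (complex IV, which passes electrons to oxygen) are encoded by mt-Co1, mt-Co2 and mt-Co3. mt-Co1 (chrM:5328-6872) was at 13822 TPM in replicate 1 and 17894 in replicate 2 as deposited, and at 15885 and 20388 with copies. mt-Co2 (chrM:7013-7696) went from 97.2 and 194 TPM to 14914 and 17700 with copies. mt-Co3 (chrM:8607-9390) went from 1953 and 3371 to 14029 and 16408. With copies added, the 3 subunits thus lay within 14029 to 20388 TPM over both libraries.

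Of the ATP synthase subunits, mt-Atp6 (chrM:7927-8607) forms part of the proton channel, and mt-Atp8 (chrM:7766-7969) is a small subunit translated from the same bicistronic RNA. mt-Atp6 was at 3797 TPM in replicate 1 and 5532 in replicate 2 as deposited, and at 17704 and 20532 with copies. mt-Atp8 was at 4650 and 5372 TPM. The TPM of mt-Atp8 was 1.22 and 0.971 times that of mt-Atp6 as deposited and 0.263 and 0.262 times with copies. mt-Atp8 is 204 nt long, and its TPM rests on an effective length of 105 nt.

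mt-Cytb (chrM:14145-15288), the cytochrome b subunit of complex III, was at 8455 TPM in replicate 1 and 9436 in replicate 2, and reads of copies did not change it. It stood below the complex IV mRNAs with copies added and above all 7 mRNAs of complex I.

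Complex I, the NADH dehydrogenase, takes 7 subunits of its membrane arm from mitochondrial DNA. mt-Nd1 (chrM:2751-3707) led them at 7150 and 8137 TPM. mt-Nd4 was at 4944 and 5697, and mt-Nd4l, which shares an RNA with it, at 4992 and 5485. The ratio of mt-Nd4l to mt-Nd4 was 1.01 and 0.963, against 0.00578 and 0.00895 in the second tables. In the first tables the members of this bicistronic pair thus had near-equal levels, which those of the mt-Atp8 and mt-Atp6 pair did not with copies added. mt-Nd2 was at 4494 and 5050 TPM. mt-Nd5 was at 3829 and 4221 TPM, and mt-Nd3 at 3833 and 3924. mt-Nd6 (chrM:13552-14070), the only mRNA read from the light-strand promoter, was lowest at 715 and 1045 TPM. The median of the 12 other mRNAs was 6.39 and 5.19 times the level of mt-Nd6 as deposited and 8.51 and 6.62 times with copies. mt-Nd6 overlaps mt-Nd5 by 14 nt on the opposite strand. The sources used here do not say whether strand was used in counting, and reads of mt-Nd6 and of heavy-strand RNA across it cannot be told apart without it.

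With copies added, neighbours in the order of the 13 mRNAs overlapped in their ranges over the libraries in 7 of 12 cases. The 4 highest, mt-Atp6, mt-Co1, mt-Co2 and mt-Co3, overlapped each in turn with the next. A gap followed between mt-Co3 and mt-Cytb, between mt-Cytb and mt-Nd1, between mt-Nd1 and mt-Nd4, between mt-Nd2 and mt-Nd5, and between mt-Nd3 and mt-Nd6. mt-Nd4, mt-Nd4l, mt-Atp8 and mt-Nd2 overlapped each with the next, and so did mt-Nd5 and mt-Nd3. Every measured gene was higher in replicate 2, so overlapping ranges do not show a change of order between the libraries. With copies added, the order was the same within each library, except that mt-Nd4 and mt-Nd4l changed places, as did mt-Nd5 and mt-Nd3. As deposited, the ranges of neighbours overlapped in 6 of 12 cases.

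**Figure D2:**
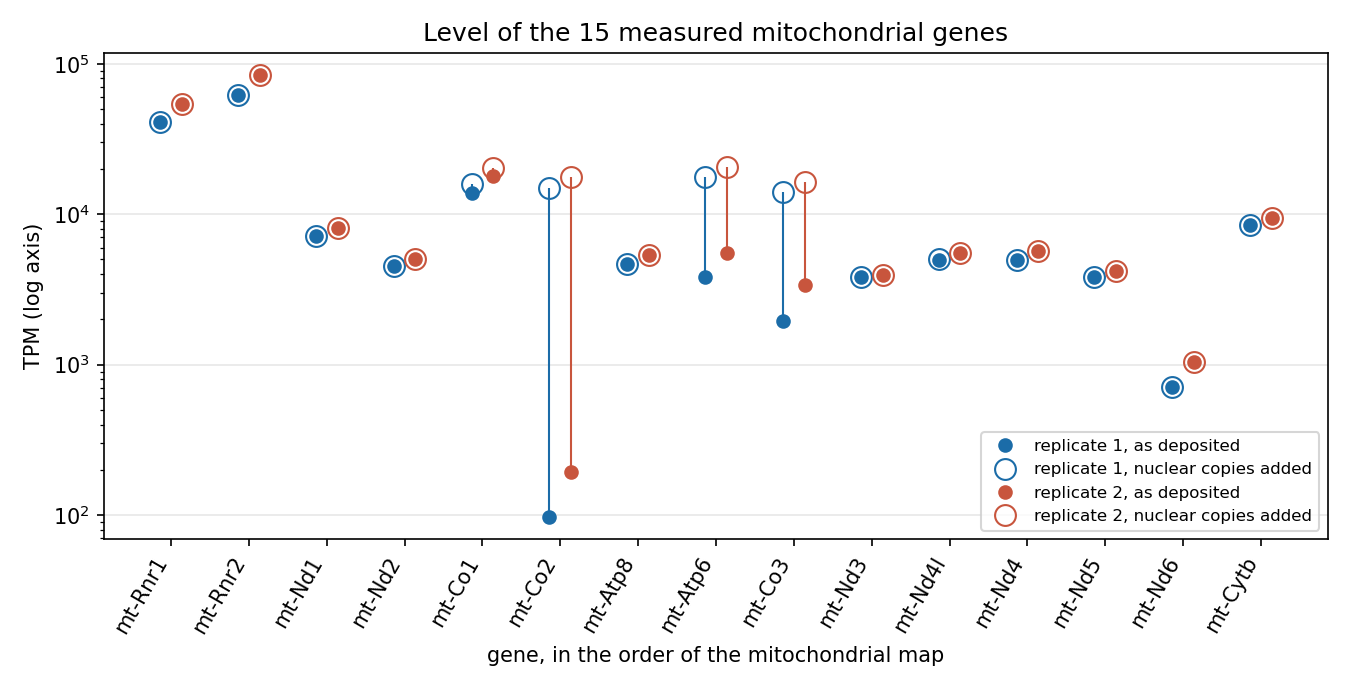
TPM (log axis) of the 15 measured genes in the order of the mitochondrial map, for each library, as deposited (filled) and with reads of nuclear copies added (open). The open circles of mt-Co2, mt-Atp6 and mt-Co3 lie far above the filled ones, from 97.2 to 14914 TPM for mt-Co2 in replicate 1, and with copies added mt-Nd6 is lowest, at 715 and 1045 TPM.

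The kinds of table also differed with transcript length. With copies added in both, the 8 genes from mt-Rnr1 (955 nt) upward had 0.829 to 1.09 times as many reads in the second tables as in the first. mt-Co2 and mt-Co3, of 684 and 784 nt, had 0.784 to 0.794 times as many. mt-Atp6, of 681 nt, had 0.587 and 0.594 times as many, and mt-Nd6, of 519 nt, 0.620 and 0.639. The 3 shortest mRNAs had the lowest ratios. mt-Nd3 (348 nt) had 4113 and 10197 reads in the second tables, 0.125 and 0.304 times the first. mt-Nd4l (297 nt) had 82 and 136 reads where the first tables had 33951 and 37337. mt-Atp8 (204 nt) had 0 in both libraries where the first tables had 16770 and 19394. The levels of these 3 short mRNAs are therefore given from the first tables, and the part of fragment or read length in these ratios was not tested.

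**Figure D3:**
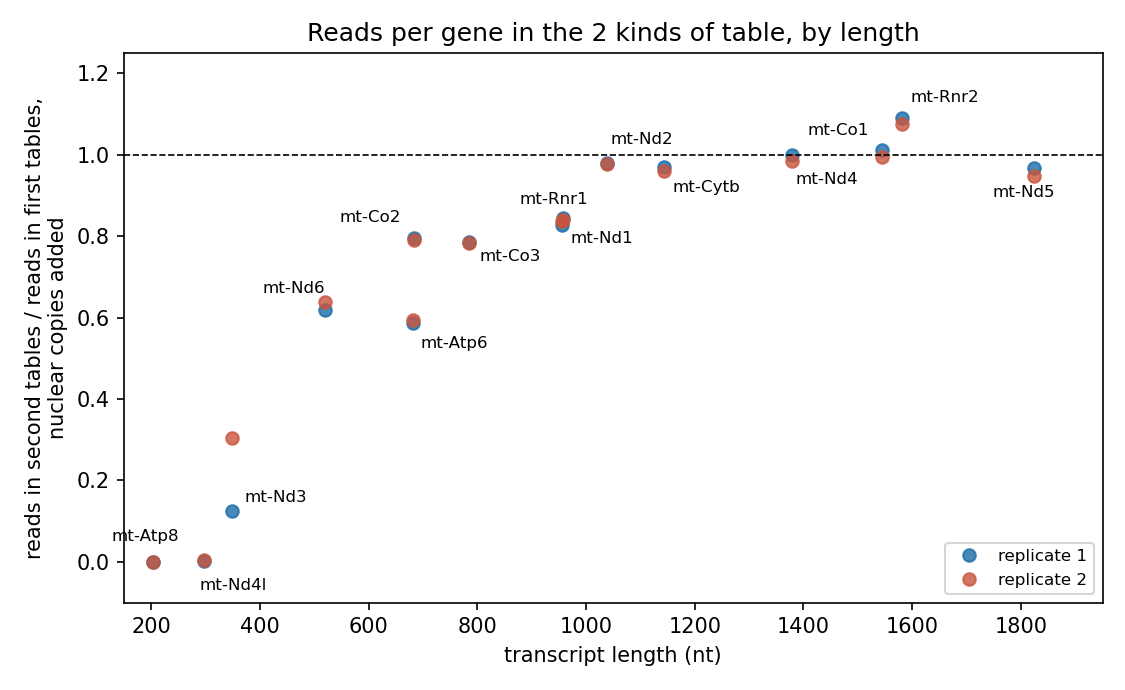
Reads of each gene in the second tables divided by its reads in the first tables (copies added in both), against transcript length in nt, for each library. The ratio lies between 0.829 and 1.09 for the genes of 955 nt or more and falls to 0 for mt-Atp8.

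Every measured gene was higher in replicate 2 than in replicate 1. Counts were scaled by TMM factors, and each of 14827 genes with at least 20 reads summed over the libraries was tested by an exact conditional binomial test with Benjamini-Hochberg adjustment over all of them. The test compares the reads of these 2 libraries and says nothing of a condition, and with 1 group there is no replicate check. It takes the expected counts as observed reads, so its calls and intervals leave out the uncertainty of read assignment. All 15 measured genes passed in the direction of replicate 2, against 14.3% of all genes tested that passed in that direction and 11.5% that passed in the other. At this depth small differences pass. The log2 ratio of replicate 2 to replicate 1 had a median of 0.25 over the 13 mRNAs, where the median of all genes tested was 0.00 and their central 95% ran from -0.89 to 0.97.

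The rRNAs differed more than most mRNAs. The log2 ratio was 0.46 for mt-Rnr1 (95% interval 0.457 to 0.464) and 0.48 for mt-Rnr2 (0.481 to 0.485). Of the mRNAs with few or no reads on a copy, mt-Nd1 was at 0.24, mt-Nd2 at 0.22, mt-Nd4 at 0.25, mt-Nd5 at 0.19, mt-Cytb at 0.21 and mt-Atp8 at 0.26. mt-Nd3 differed least, at 0.08, and mt-Nd4l stood at 0.19. mt-Nd6 was at 0.60 (0.561 to 0.634), while the other 6 mRNAs of complex I lay between 0.08 and 0.25.

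As deposited, 4 of the 15 genes were at least 1.5-fold higher in replicate 2, against 6.55% of all genes tested in that direction and 6.02% in the other. They were mt-Co2 at 1.04 (0.964 to 1.12), mt-Co3 at 0.84, mt-Nd6 and mt-Atp6 at 0.59. mt-Nd6 and mt-Atp6 lay at the limit, and with scaling by DESeq2 size factors or by total counts 2 genes remained past it, mt-Co2 and mt-Co3. With copies added only mt-Nd6 was past it, with mt-Co1 at 0.41, mt-Co2 at 0.30, mt-Co3 at 0.28 and mt-Atp6 at 0.26. The large ratios of the 3 genes with divided reads thus fell to the size of the others once the pairs were summed. By the second tables, the genes past 1.5-fold were 3, with mt-Nd3 at 1.39, mt-Nd4l at 0.80 and mt-Nd6 at 0.67. mt-Nd4l had 82 and 136 reads there. The cause of the larger ratio of mt-Nd3 in the second tables was not tested.

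**Figure D4:**
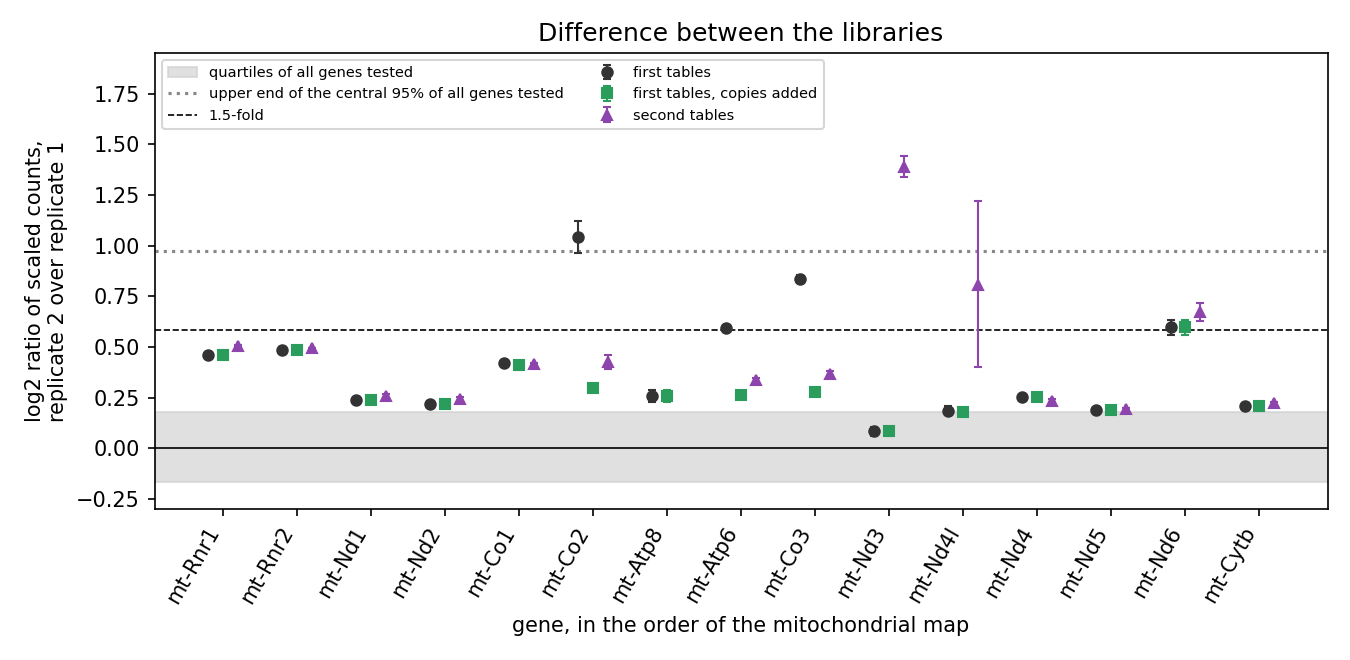
Log2 ratio of scaled counts, replicate 2 over replicate 1, with 95% intervals, for each measured gene in map order, from the first tables, the first tables with copies added and the second tables. The intervals cover counting error only, and the grey band spans the quartiles of all 14827 genes tested. With copies added, the ratios lie between 0.08 (mt-Nd3) and 0.60 (mt-Nd6).

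The nuclear partners of these subunits were also higher in replicate 2, and far lower in level. In complex I, 35 of 36 nuclear subunits passed as higher and 0 as lower, with a median log2 ratio of 0.28. Over all genes tested 14.3% passed as higher and 11.5% as lower, against which the counts of this and the next 3 lists are to be read. Ndufc1 was at 395 TPM in replicate 1 and 423 in replicate 2, and Ndufa3 at 365 and 419. In complex III all 9 passed as higher (median 0.35), among them Uqcrq at 453 and 558 TPM, Uqcrc1 at 327 and 438 and Uqcr10 at 328 and 404. In complex IV all 11 passed as higher (median 0.35). Cox8b was at 805 and 937 TPM, Cox6b1 at 525 and 841, and Cox6a2, the muscle form of its subunit, at 543 and 746. In ATP synthase 15 of 16 passed as higher and 0 as lower (median 0.36). The catalytic subunit gene Atp5b led at 1264 and 1596 TPM. Atp5a1 was at 661 and 839, and the ring subunit gene Atp5g1 at 462 and 631. By scaled counts, on which the test rests, no nuclear partner in the 4 lists was past 1.5-fold. TPM also depends on a gene's effective length, and the TPM of Cox6b1 differed by more than its counts.

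Mitochondrial subunits numbered 7 in complex I, 1 in complex III, 3 in complex IV and 2 in ATP synthase, so their medians rest on few genes. The median TPM of the mitochondrial subunits with copies added was 29.1 and 27.9 times that of the nuclear partners in complex I. It was 27.8 and 25.3 times in complex III, 32.4 and 31.1 times in complex IV, and 39.2 and 38.04 times in ATP synthase. Without the copies it was 4.24 and 5.93 times in complex IV and 14.8 and 16.01 times in ATP synthase. By the second tables with copies added it was 21.003 and 17.8 times in complex I, 25.3 and 22.6 in complex III, 33.3 and 32.8 in complex IV, and 18.3 and 16.9 in ATP synthase. With copies added, ATP synthase thus had the highest ratio in the first tables and the lowest in the second, which give no reads to mt-Atp8. The likeness of the ratios across the complexes therefore rested on the addition of the copies and on the kind of table. The median log2 ratio between the libraries of the mitochondrial subunits with copies was 0.22, 0.21, 0.30 and 0.26 in complexes I, III, IV and ATP synthase, against 0.28, 0.35, 0.35 and 0.36 for their nuclear partners.

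**Figure D5:**
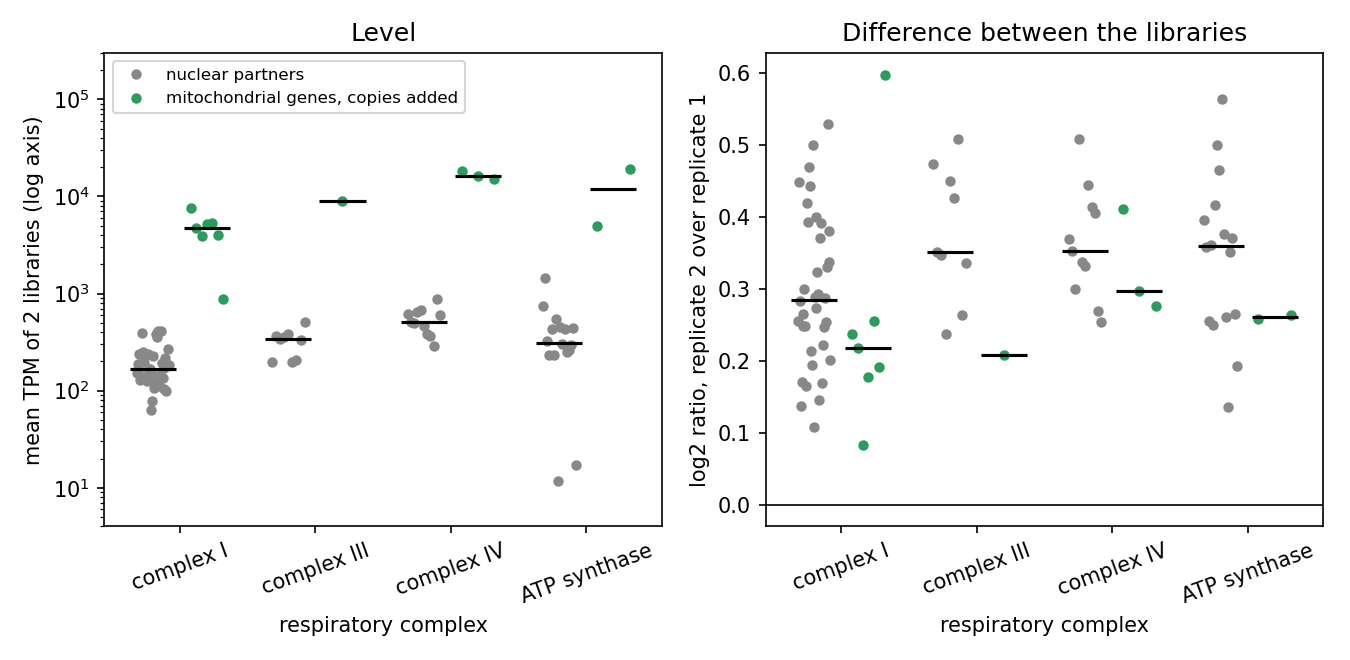
Mean TPM of the 2 libraries (left, log axis) and log2 ratio of replicate 2 to replicate 1 (right) of mitochondrial subunits with copies added and of nuclear partners, by complex. Each point is a gene, horizontal position within a group has no meaning, and bars are medians; in the first tables shown, mitochondrial medians were 25.3 to 39.2 times the nuclear ones.

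The nuclear genes that maintain, transcribe and process the mitochondrial genome had smaller median ratios between the libraries, and their shares of genes passed are to be read against the 14.3% of all genes tested. Of 20 genes for transcription and mtDNA maintenance, 4 passed as higher in replicate 2 (median 0.08). Tfam, which packages mtDNA and activates its promoters, was at 17.4 TPM in replicate 1 and 19.2 in replicate 2, the transcription factor gene Tfb2m at 16.3 and 18.5, and Polg, the mtDNA polymerase, at 13.8 and 16.6. Of these 3, Tfam and Polg passed and Tfb2m did not (adjusted p = 0.34, exact binomial test). Primpol was the 1 member of this list past 1.5-fold, toward replicate 1, at 0.820 and 0.320 TPM, and it did not pass (adjusted p = 0.15, exact binomial test).

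Of 21 genes for processing, polyadenylation and decay of mitochondrial RNA, 10 passed as higher (median 0.18). The RNA-binding protein gene Grsf1 was at 49.1 and 55.8 TPM, Slirp at 55.2 and 55.3 and Fastk at 64.1 and 74.5. Grsf1 and Fastk passed and Slirp did not. Of 15 genes for rRNA modification and mitoribosome assembly, 3 passed as higher (median 0.13), with Malsu1 at 17.9 and 18.5 TPM, Dhx30 at 11.1 and 13.4 and Mtg1 at 10.4 and 9.57, none of which passed. Mettl15, an rRNA methyltransferase gene at 1.24 and 2.51 TPM, passed with a log2 ratio of 1.05.

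Of 15 genes for tRNA modification and maturation, 1 passed as higher (median 0.09): Osgepl1 at 8.78 and 10.4 TPM. Nsun2 was at 20.4 and 17.0, and Trnt1, which adds the CCA end, at 8.69 and 9.32. Of 23 genes that charge tRNAs with amino acids or modify the charged tRNA, 5 passed as higher (median 0.18). They comprise 19 aminoacyl-tRNA synthetase genes, of which 4 passed, the amidotransferase subunit genes Gatb, Gatc and Qrsl1, and the formyltransferase gene Mtfmt. Of the last 4, Qrsl1 passed, at 5.10 and 7.37 TPM. Kars was at 48.8 and 47.2 TPM, Gars at 23.6 and 22.9, and Fars2 at 17.0 and 16.1. Fars2 passed as higher by scaled counts, with a log2 ratio of 0.23, although its TPM was not higher. In these 5 lists 0 genes passed as lower in replicate 2. The genes for the tRNA machinery are thus measured here although the tRNAs are not.

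Lists of fibre type and cell type genes were also compared between the libraries. Their counts too stand against 14.3% of all genes that passed as higher, 11.5% as lower and 6.55% at 1.5-fold or more toward replicate 2. Each of 11 slow fibre genes passed as higher in replicate 2 and was past 1.5-fold, and their summed level went from 1535 TPM in replicate 1 to 3829 TPM in replicate 2. All 11 fast fibre genes passed as lower, from 87797 to 68214 TPM. Myoglobin (Mb), which stores oxygen in oxidative fibres and belongs to the muscle identity list below, was at 1212 and 2431 TPM. Of 7 fibroblast genes, 6 passed as lower and 1 as higher, from 266 to 229 TPM in sum. Of the 7 endothelial genes 5 passed as higher and 1 as lower (76.0 and 77.0 TPM in sum). Of the 5 red cell genes 0 passed as higher and 1 as lower (237 and 216 TPM), and of the 7 macrophage genes 0 and 1 (25.5 and 22.0 TPM), both near the share over all genes. Of 6 adipocyte genes 4 were tested, of which 1 passed as lower (6.07 and 3.38 TPM), and 1 was at 0. Of 6 heart muscle genes 2 were tested, and both passed as higher (43.0 and 106 TPM), with 3 at 0. Of the 8 muscle identity genes, Mb among them, 1 passed as higher and 6 as lower. Myh4, Tnnt3 and Mylpf are in both this list and the fast fibre list, so the counts of the lists are not separate. The 8 genes summed to 81214 and 67395 TPM, and all 8 had reads in both libraries, as the tissue label gives. The part of fibre composition in the mitochondrial values was not tested. In bulk tissue fewer cells of a type and less RNA per cell cannot be told apart.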

How the data were processed

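Total RNA libraries of gastrocnemius were analysed from the values the authors deposited. Expected counts, TPM and posterior values make up the first tables per the file headers, while the second tables give estimated counts and TPM for transcripts. The posterior means and standard deviations deposited by the authors were read as scores. The sources used here name no program. Assembly mm10 and GENCODE M21 are named in the deposited notes. Gene symbols, coordinates and sequences came from GENCODE M21, and all 55536 genes matched.

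The 37 members, the gene lists (9 pathway and 9 marker lists) and the tests were chosen with earlier results of these data known. All members are named, with copies at 1% or more of the reads of their gene, and in each pathway list the 3 genes with the highest mean TPM and any past 1.5-fold, except 1 gene that is not reported here.

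Expected counts were rounded and scaled by TMM (edgeR 4.0.16, R 4.3.3). Genes with 20 or more reads over both libraries were compared by a conditional binomial test, exact and two-sided (scipy 1.17.1), adjusted by the Benjamini-Hochberg method, with a threshold of 0.05. Ratios had 0.5 added to each count. On simulated data for 14850 genes, 99.0% of 2-fold changes were recovered and 0.0410% of unchanged genes were called. Both simulated libraries were Poisson draws from 1 shared profile at known sizes, without variation between libraries or uncertainty in read assignment. These rates therefore check the calculation and are not error rates of the calls made here. Copies were found with BLAST 2.17.0. Second tables were summed to genes. Expected counts of genes, spike-ins excluded, totalled 42724520 in replicate 1 and 42280091 in replicate 2, and spike-ins were 0.468% and 0.442% of all counts. A count of 0 allows up to 3 reads. Alternatives were other scalings, filters, table kinds, pooled copies and each library alone.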

Additional observations from a re-analysis of the deposited data

How the results depend on the processing

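The limits are 2 libraries, 1 group, reads that gene and copy share, short genes, and strand use that is not given. Scaling, filters and a larger count added changed no direction and no call of the 15 library ratios, and neither did the second tables (14 genes, since mt-Atp8 had no reads) or the copies. The cause of the changes below was not tested. The share of reads on the 37 genes was 17.3%, and 20.7% over nuclear protein-coding and mitochondrial genes alone, where the mRNA share was 6.24%; with copies the mRNA share was 7.63%. Leaving out a library gave 14.9% to 19.6% for the 37 genes, 4.70% to 5.75% for the mRNAs, 10.2% to 13.9% for the rRNAs and 1.64 to 1.83 for the rRNA to mRNA ratio, which was 1.05 with copies and 2.30 by counts. The number of genes past 1.5-fold was 4, and 2 with DESeq2 size factors or total counts and 1 with copies. The median log2 ratio of the mRNAs was 0.25, and 0.23 with DESeq2 size factors, 0.22 with total counts, 0.31 with ERCC counts and 0.35 in the second tables. For the rRNAs it was 0.47, and then 0.45, 0.44, 0.52 and 0.50. TPM levels over genes longer than 300 nt alone were higher for all 13 such genes. No paired analysis was possible because there is 1 group.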
